A study of Mus musculus with 6 samples.

Results

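The genes described here carry the names of the proteins of the cytosolic ribosome, with a few pseudogenes among them. They were taken from the count table by name: every symbol made of Rps or Rpl and a number, with the few suffixed forms, plus Rpsa, Rplp0, Rplp1 and Rplp2, leaving out names with -ps. That gave 88 of 41053 gene names, 37 of the small subunit and 51 of the large subunit. RNA was sequenced from naive B cells of the spleen of C57BL/6 mice, in 3 libraries labelled TET2 knockout and 3 labelled wild type, which carry the numbers 2, 3 and 4 in each genotype. TET2 is an enzyme that oxidises methylated cytosine in DNA. The labels give no age, no sex and no statement of whether each library came from its own mouse, nor do they say how or in which cells Tet2 was deleted, so a p-value here speaks only of how libraries vary, and that variation may be technical. Where 3 values are given for a genotype they are in the order of libraries 2, 3 and 4.

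Library totals ran from 35101788 to 45401781 counts. Levels are in CPM, a count relative to library size, with sizes scaled by TMM, a normalization that lines up the bulk of genes between libraries. Summed CPM of 12 naive B cell markers was 38089 to 44132 in knockout and 34695 to 36559 in wild type. It was 392.1 to 464.7 for 6 plasma cell markers and 159 to 197 for 5 markers of activated or germinal centre B cells over the 6 libraries, against 2.86 to 3.75 for 7 T cell markers, at most 0.915 for 7 neutrophil markers, of which Elane was at 0, and 29.4 to 42.2 for 9 macrophage and monocyte markers. Tet2 itself was at 59.4, 64.8 and 50.04 CPM across the knockout libraries and at 74.7, 83.3 and 56.8 CPM across the wild-type libraries. Those ranges overlap (log2 fold difference -0.30, SE 0.14, edgeR adjusted p = 0.408). The labels do not say which exons were removed, so a count over the whole gene checks little.

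Each ribosome is built from a small subunit, which reads the messenger RNA, and a large subunit, which joins amino acids into a chain. Their proteins are made from many separate genes at matched amounts, and most of these messengers begin with a run of pyrimidines that lets the kinase mTORC1 set how often they are translated. Resting B cells make little new ribosome and raise its production when they are activated. Most ribosomal protein genes also have processed pseudogenes, intronless copies of their messengers elsewhere in the genome.

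The small subunit genes together took 1.14%, 1.08% and 1.17% of all counts in knockout libraries 2, 3 and 4 and 0.763%, 0.830% and 1.10% in wild-type libraries 2, 3 and 4. The knockout libraries lay close together, 2 wild-type libraries lay below all of them, and wild-type library 4 lay inside the knockout range. Mean shares were 1.13% ± 0.0449 in knockout and 0.897% ± 0.178 in wild type (SD, n = 3 libraries each). For the large subunit the shares were 1.35%, 1.29% and 1.39% in knockout libraries 2, 3 and 4 and 0.949%, 1.03% and 1.27% in wild-type libraries 2, 3 and 4. Here the genotypes did not overlap, but wild-type library 4 stood next to the lowest knockout library. The means were 1.34% ± 0.0508 and 1.08% ± 0.169 (SD, n = 3 each). In bulk samples, fewer cells of a type and less RNA per cell cannot be told apart.

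**Figure D1:**
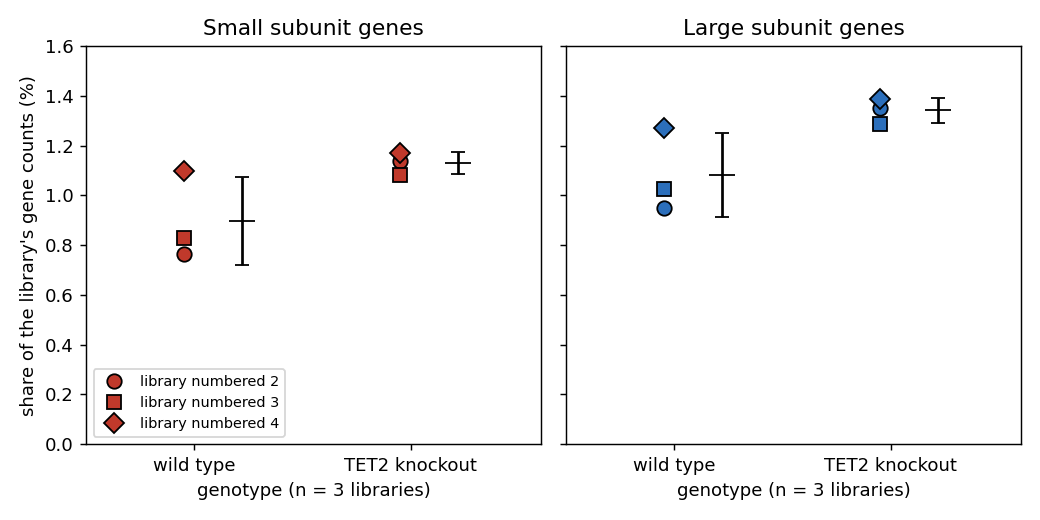
Share of each library's gene counts (%) that fell on small subunit genes (left) and large subunit genes (right), by genotype; each symbol is 1 library, its shape the library number, and the bar is the mean with its SD (n = 3). Wild-type library 4, at 1.10% and 1.27%, sits far above the other wild-type libraries and beside the knockout libraries.

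The 2 subunits kept nearly the same proportion. Over the genes that encode standard subunit proteins, 31 small and 46 large, counts on the small subunit were 0.850, 0.849 and 0.853 of those on the large subunit in knockout libraries 2, 3 and 4. In wild-type libraries 2, 3 and 4 the ratios were 0.814, 0.819 and 0.874, a wider spread that encloses the knockout values.

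Levels of single genes were compared per kilobase of the table's summed exon length. In wild type the small subunit gene with the highest level was Rps15 at 1140 CPM per kb. In the large subunit the highest were Rpl8, which lies near the peptidyl transferase centre, at 1660 CPM per kb, Rplp1 of the stalk at 1522 and Rpl4, which reaches into the exit tunnel, at 1350. The lowest tested levels of the small subunit belonged to Rps3a3 at 0.341, Rps4l at 1.12 and Rps6 at 3.33 CPM per kb. Among large subunit genes they belonged to Rpl23a at 1.25, Rpl24 at 2.01 and Rpl38 at 2.86 CPM per kb. For Rps6, 84.6% of the 50-base stretches of its transcript also occur in transcripts of other genes, but Rps4l had a lower share than Rps15. Exons of other genes overlap 62.3% of the bases of Rpl23a and 47.0% of those of Rpl24. Rps3a3, Rps4l, Rps6 and Rpl38 had no such overlap. How far shared or overlapped sequence lowers these levels was not tested. Not all of the names are protein genes: GENCODE vM21 lists Rps3a3, Rps3a2 and Rps12l1 as processed pseudogenes and Rps4l as a transcribed processed pseudogene.

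Of the 88 genes, 82 passed the filter on low counts and were tested, 34 of the small and 48 of the large subunit. Those that did not pass were near the detection limit. Rps12l1 had no count in any library, which allows up to 0.0857 CPM in the shallowest of them (3 counts). Rps12l2 reached 0.0571 CPM at most, Rpl10l 0.0253, Rpl3l 0.120 and Rps3a2 0.152. Rpl39l was at 0.318, 0.0481 and 0.0253 CPM across the knockout libraries and at 0.0226, 0.0227 and 0.742 CPM across the wild-type libraries, so that 1 library of each genotype stood above the rest.

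With edgeR's quasi-likelihood test and Benjamini-Hochberg adjustment over 13604 genes, 0 ribosomal protein genes of either subunit were called at an adjusted p under 0.05, against 0.404% of all tested genes. The smallest adjusted p was 0.140 in the small subunit and 0.120 in the large subunit. At an unadjusted p under 0.05, 17 small and 17 large subunit genes were higher in knockout, 41.5% of those tested against 7.85% of all genes, and 4 small and 8 large subunit genes were lower, 14.6% against 5.51%. DESeq2 called 8 genes higher (background 1.45%), among them Rps9, Rpl4, Rpl8, Rpl14, Rplp0 and Rplp2, and 2 lower (background 1.12%), Rpl10 and Rpl12, while limma-voom called 0 (background 0.331%). The log2 difference between genotypes was positive for 25 of 34 small and 32 of 48 large subunit genes, against 48.8% of all genes. Its median was 0.34 for the small subunit (range -0.67 to 0.74) and 0.23 for the large subunit (range -0.60 to 0.49), beside -0.01 for all tested genes. The value of 0.74 belonged to the pseudogene Rps4l. Without wild-type library 2, 3 or 4 the large subunit median was 0.13, 0.14 or 0.40.

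Among the small subunit genes with more RNA in knockout and the lowest p-values were Rps9 and Rps19. Rps9 was at 1136, 1087 and 1073 CPM across the knockout libraries and at 716, 793 and 942 CPM across the wild-type libraries. The genotypes did not overlap, and the wild-type libraries spread more widely than the knockout libraries (log2 fold difference 0.43, SE 0.11, edgeR adjusted p = 0.162). Rps19, mutated in Diamond-Blackfan anaemia, a failure of red cell production, was at 448, 434 and 442 against 284, 312 and 403 CPM in the same order (log2 0.41, edgeR adjusted p = 0.222). Both genes kept the genotypes apart, with wild-type library 4 the nearest to the knockout. Altogether 11 small subunit genes, among them the pseudogene Rps3a3, had every knockout library above every wild-type library and 2 the reverse. Over both subunits these were 22 and 11 genes, 26.8% and 13.4% of those tested, beside 10.2% and 8.28% of all genes.

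The small subunit genes on the other side were all of low count. Rps6, the protein that S6 kinase phosphorylates below mTORC1, was at 2.38, 2.65 and 4.95 CPM across the knockout libraries and at 5.80, 5.46 and 4.597 CPM across the wild-type libraries. Knockout libraries 2 and 3 lay lowest while knockout library 4 lay among the wild type (log2 -0.67, SE 0.27, edgeR adjusted p = 0.334). Rps12 was at 8.97, 9.03 and 12.2 against 13.5, 11.6 and 13.6 CPM in the same order, so the genotypes overlapped (log2 -0.36, edgeR adjusted p = 0.353). Rps27a, which is made as a fusion to ubiquitin, was at 18.8, 19.9 and 26.6 against 31.9, 25.4 and 26.6 CPM (log2 -0.36, edgeR adjusted p = 0.337).

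In the large subunit Rpl8 had the smallest p of any ribosomal protein gene. It was at 2019, 1887 and 1869 CPM across the knockout libraries and at 1313, 1425 and 1554 CPM across the wild-type libraries. No library of one genotype reached the range of the other (log2 0.43, SE 0.09, edgeR adjusted p = 0.120). Rplp0, the base of the stalk that recruits elongation factors, was at 955, 911 and 885 against 560, 633 and 771 CPM in the same order (log2 0.49, SE 0.11, edgeR adjusted p = 0.154). Rplp2, a protein of the same stalk, was at 421, 379 and 396 against 280, 331 and 332 CPM (log2 0.34, edgeR adjusted p = 0.175). Rpl14 was at 201, 182 and 197 against 129, 135 and 168 CPM (log2 0.42, edgeR adjusted p = 0.157). The genotypes stayed apart for each of these genes.

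Rpl12, which sits at the foot of the stalk, went the other way from the stalk proteins. It was at 42.5, 40.3 and 52.0 CPM across the knockout libraries and at 71.9, 56.2 and 62.4 CPM across the wild-type libraries (log2 -0.50, SE 0.12, edgeR adjusted p = 0.157). Rpl10, a protein added late that lets the subunits join, was at 55.8, 58.0 and 73.0 against 101, 85.7 and 76.4 CPM (log2 -0.49, SE 0.13, edgeR adjusted p = 0.176). Rpl10a, of the stalk on the far side of the subunit, was at 47.1, 49.2 and 55.8 against 72.7, 58.5 and 60.2 CPM (log2 -0.33, edgeR adjusted p = 0.254). Rpl36 was at 4.59, 3.85 and 7.0 against 8.70, 7.48 and 7.11 CPM (log2 -0.60, edgeR adjusted p = 0.307). In all 4 the genotypes did not overlap, and the numbered 4 libraries were the closest pair for Rpl10 and Rpl36.

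**Figure D2:**
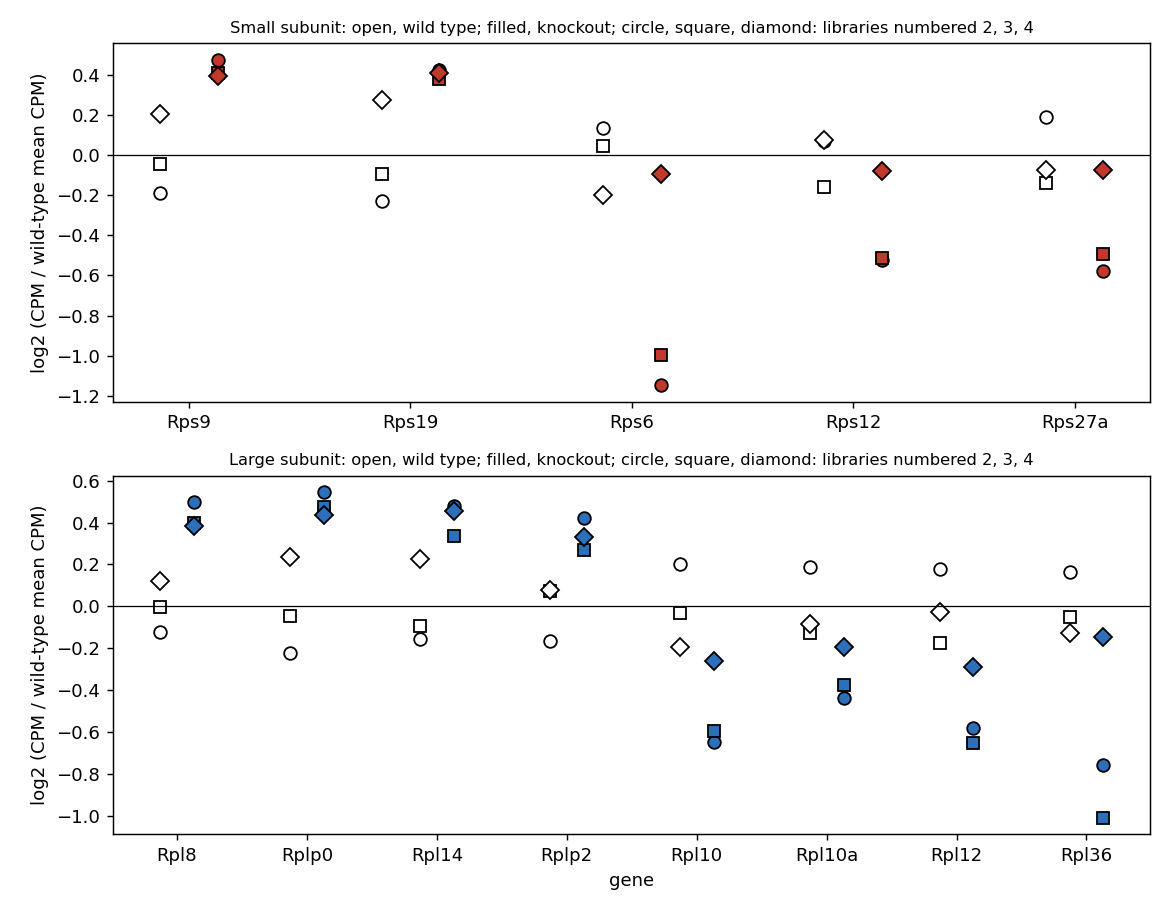
Level of 13 ribosomal protein genes in each library, as log2 of CPM over the gene's mean wild-type CPM; open symbols are wild type, filled symbols knockout, and shapes are library numbers (n = 3 per genotype). Rps9, Rps19, Rpl8, Rplp0, Rpl14 and Rplp2 have all knockout libraries above all wild-type libraries, and the other genes have knockout libraries 2 and 3 lowest.

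The sign of the genotype difference followed the level of the gene. All 40 genes with a mean of at least 100 CPM, 18 small and 22 large, had a positive log2 difference, with a median of 0.38 in the small and 0.35 in the large subunit, and 31 of them had an unadjusted p under 0.05. Among all 2440 tested genes at that level 50.7% were positive and 13.4% were higher at that p. Below 30 CPM the count was 8 positive and 21 negative, a median of -0.24, where 46.6% of all 7576 tested genes at that level were positive. The 13 genes between 30 and 100 CPM held 9 positive and 4 negative differences. These bands of level were drawn after the values were seen.

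**Figure D3:**
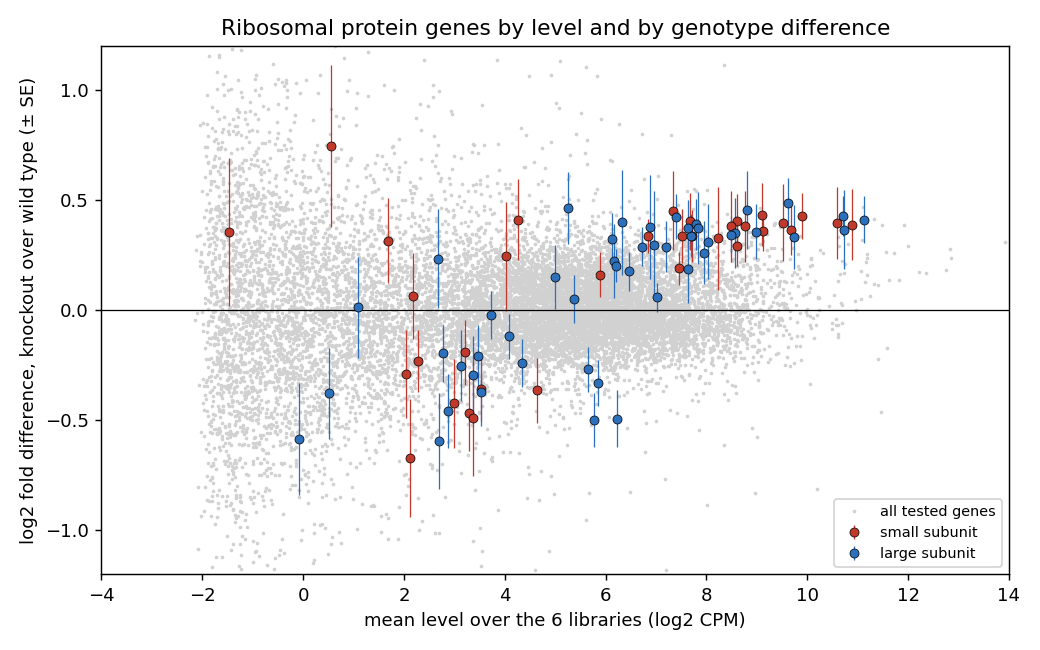
Log2 fold difference of knockout over wild type (edgeR, bars are SE) against the mean level over 6 libraries (log2 CPM), for 34 small subunit genes (red), 48 large subunit genes (blue) and all tested genes (grey); the vertical axis is limited to 1.2 either way. Every ribosomal protein gene of at least 100 CPM lies above zero, and 21 of 29 below 30 CPM lie under it.

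Level also went with how much of a gene's messenger is found in transcripts of other genes. Matches on either strand counted, and so did genes that overlap the gene at its own place. A gene on the opposite strand overlaps 66.2% of the bases of Rpl35, for example. The share is therefore not a measure of multiply mapped reads alone. For 1 GENCODE vM21 transcript per gene, the share of its 50-base stretches that also occur in transcripts of other genes was computed, since the counting command in the file header set no option for reads that map to several places. The median was 43.2% for the 57 genes with a positive difference, whose median wild-type level was 176 CPM, and 79.3% for the 25 with a negative difference, whose median was 11.4 CPM. Of 33 genes with less than 50% of their sequence shared, 30 were positive, against 26 of 43 with 50% to 90% shared and 1 of 6 above that. Rps3, with 2.96% shared, was among the most abundant genes and positive; Rps6 and Rps27, with 84.6% and 98.6% shared, were negative. Across the 82 genes the log2 difference had a Pearson r of -0.55 and a Spearman rho of -0.57 with the shared share, and r of 0.62 and rho of 0.68 with the mean log2 CPM; the genes share libraries and are not independent replicates. How far the shared sequence contributes to the genotype difference was not tested. Exons overlapped those of other genes most in Rpl13a, Rpl24, Rpl23a and Rpl35, over 35.9%, 47.0%, 62.3% and 66.2% of their bases.

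**Figure D4:**
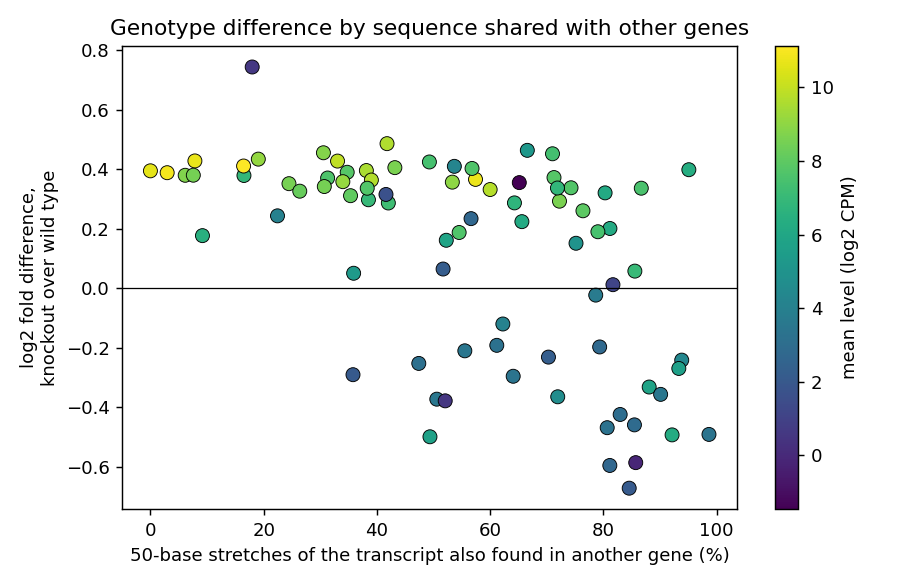
Log2 fold difference of knockout over wild type for each tested ribosomal protein gene with a matched transcript, against the share (%) of its 50-base stretches found in transcripts of other genes; colour is the mean level (log2 CPM). Negative differences gather at high shares and low levels, and 30 of the 33 genes under 50% are positive.

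The genotype difference was larger within the libraries numbered 2 and 3 than in those numbered 4. On the log2(CPM + 0.5) scale the median difference within those numbers was 0.42 in the small and 0.36 in the large subunit, and in the libraries numbered 4 it was 0.10 and 0.06. The genes of at least 100 CPM were positive in 40 of 40 within numbers 2 and 3 (median 0.54) and in 34 of 40 within number 4 (median 0.10). Genes under 30 CPM were negative in 22 of 29 within numbers 2 and 3 (median -0.37) but in 12 of 29 within number 4 (median 0.04). Relative to each gene's mean over libraries, the median small subunit gene stood at 0.20, 0.08 and 0.22 in knockout libraries 2, 3 and 4 and at -0.30, -0.21 and 0.11 in wild-type libraries 2, 3 and 4, with wild-type library 4 apart from the other wild-type libraries. With genotype in the model, edgeR called 4 of 34 small and 10 of 48 large subunit genes higher in the libraries numbered 4 than in the others (background 7.83%) and 0 lower (background 6.95%). Summed CPM of 8 heat shock genes differed with the number too and was 521, 557 and 1129 in knockout and 419, 450 and 1105 in wild type. Its part in the result was not tested.

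**Figure D5:**
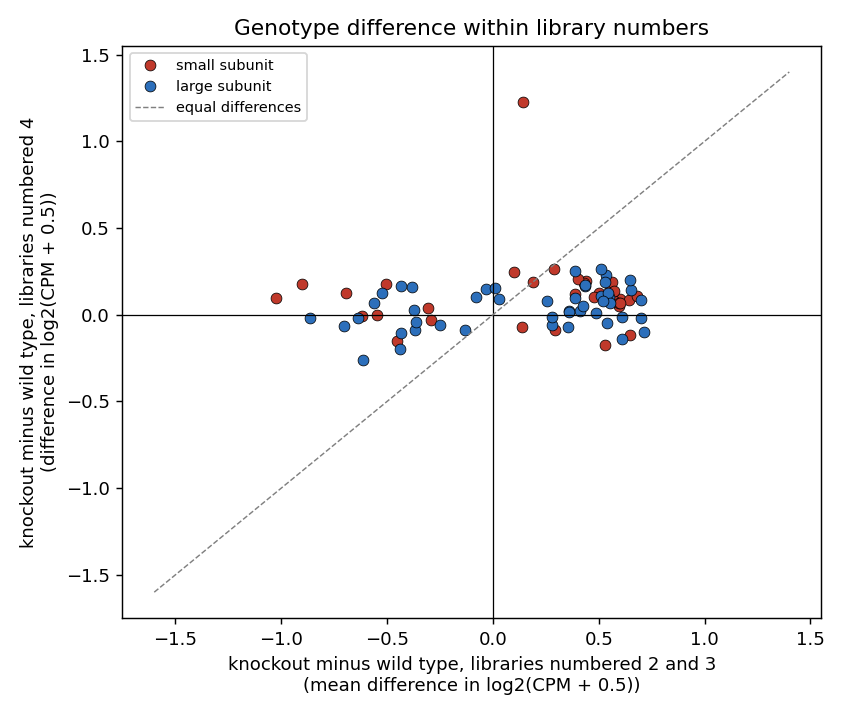
Difference of knockout minus wild type in log2(CPM + 0.5) for each tested ribosomal protein gene, as the mean within the libraries numbered 2 and 3 (horizontal) and in the libraries numbered 4 (vertical); the dashed line marks equal differences. Horizontally the genes form a positive and a negative cloud, while vertically most lie near zero, and Rps4l, at 1.23, is the gene far above.

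Calls differed between fits. With a term for the libraries numbered 4 in the model, edgeR called 21 genes higher, 10 small and 11 large (25.6% of those tested, background 2.59%), and 1 lower, Rpl12 (background 1.81%). The 21 included Rps9, Rps15, Rps19 and Rpsa, and Rpl4, Rpl8, Rpl14, Rplp0, Rplp1 and Rplp2. In the libraries numbered 2 and 3 alone it called 49 higher and 18 lower, where 13.6% and 10.4% of all genes were called. Without wild-type library 4 it called 45 higher (background 4.53%) and 3 lower, among them Rpl9 and Rpl10 (background 1.94%). Without knockout library 4 it called 0 higher (background 0.424%) and 2 lower, Rps6 and Rps27 (background 0.626%). Leaving out knockout library 2 or 3, or wild-type library 2 or 3, it called 0 in either direction. Over all genes, calls in such fits fell to as few as 9 higher and 8 lower. edgeR also called 0 with upper quartile factors, RLE factors or library size only in place of TMM (background with TMM 0.404%). With the library number as a block (the replicate block) it called 0, where 35 of all 13604 genes were called higher and 50 lower.

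Parts of the ribosome were described by fixed groups of these genes, whose signs are given here without a test, since edgeR called 0 of them. Both genes at the messenger entry channel, Rps2 (log2 0.19) and Rps3 (0.39), and all 4 at the exit side were positive. Of the stalk, Rplp0, Rplp1 (log2 0.33) and Rplp2 were positive and Rpl12 negative. Rpl5 and Rpl11, which form a particle with the small RNA of the large subunit and bind Mdm2 when assembly is disturbed, were both negative (log2 -0.24 and -0.12), with 93.8% and 62.2% of their sequence shared. Along the exit tunnel 6 of 9 were positive, and of 9 Diamond-Blackfan genes 5 were. The 4 tested names of the list of paralogs, the pseudogene Rps4l and the genes Rps27l, Rpl7l1 and Rpl22l1, were positive (median 0.23). On the X chromosome Rps4x (log2 0.29) and Rpl39 (0.38) were positive while Rpl10 and Rpl36a (-0.46) were negative.

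Start sites were looked up because these messengers are known for the pyrimidine run described above. RefSeq promoters on GRCm38.p6, 250 bases before to 50 after each start, were found for 63 of the 88 genes. A run of at least 5 C or T that begins with C at the start was present for 13 of the 63 (20.6%), against 3.01% of 9244 tested genes with a promoter. It was present for 9 of 42 genes with a positive and 4 of 18 with a negative difference, so the run was found on both sides. Only runs that begin exactly at the listed start base were counted, so a stretch that begins nearby, as in Rps9, was missed in all these shares. The 30 bases around the start are shown for 4 genes that were positive (Rps10, Rps18, Rpl14, Rplp2) and 4 that were negative (Rps6, Rps27, Rpl28, Rpl38), chosen to show both; capitals mark the run from the start base, and sequences read along the gene's strand.
Rps10, chr17:27635230-27635259, minus strand: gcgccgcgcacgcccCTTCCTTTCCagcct
Rps18, chr17:33955651-33955680, minus strand: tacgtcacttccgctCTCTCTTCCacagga
Rpl14, chr9:120571502-120571531, plus strand: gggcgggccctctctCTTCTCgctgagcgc
Rplp2, chr7:141447636-141447665, plus strand: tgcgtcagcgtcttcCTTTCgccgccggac
Rps6, chr4:86857353-86857382, minus strand: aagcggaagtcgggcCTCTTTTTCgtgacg
Rps27, chr3:90213634-90213663, minus strand: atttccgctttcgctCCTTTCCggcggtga
Rpl28, chr7:4792950-4792979, plus strand: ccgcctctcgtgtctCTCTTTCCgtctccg
Rpl38, chr11:114668565-114668594, plus strand: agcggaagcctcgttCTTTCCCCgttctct

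The motif CCGGAAG, searched on both strands as a form of the ETS factor site, was in the promoters of 26 of 63 ribosomal protein genes (41.3%) and of 20.8% of tested genes. It was in 18 of 42 positive and 7 of 18 negative genes. TATAAA was in 7 of 63 (11.1%, against 8.29% of tested genes). A match is a description of these letters and not evidence of binding.

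Other genes of the translation machinery were described beside them. Of 19 elongation factors and related genes of pyrimidine-started messengers, 17 had a positive difference (median log2 0.31), against 48.8% of all genes. At an unadjusted p under 0.05, 14 were higher (73.7%, background 7.85%), and edgeR called 0 of 19 (background 0.404%). DESeq2 called 11 higher (background 1.45%) and limma-voom 0 (background 0.331%). The replicate block called 1 higher (35 of all 13604 genes), and the term for the libraries numbered 4 called 13 higher (68.4%, background 2.59%). Eef1g, a subunit of the factor that reloads elongation factor 1, was at 158, 161 and 138 CPM across the knockout libraries and at 96.0, 113 and 113 CPM across the wild-type libraries, without overlap (log2 0.50, SE 0.09, edgeR adjusted p = 0.072). Eef1d, of the same complex, had a log2 difference of 0.48 (edgeR adjusted p = 0.118). Of 19 initiation factors 16 were positive (median 0.19), with Eif5b at a log2 difference of 0.30 and Eif5a at 0.27. In contrast 5 of 16 genes of mTORC1 and its control of these messengers were positive (median -0.06), with Ddit4 at 0.51 and Tial1 at -0.22. Of 8 importers and escorts of ribosomal proteins 7 were positive (median 0.06), with Grwd1 at 0.28 and Ipo5 at 0.20, and of 8 genes that transcribe the ribosomal protein genes 3 were (median -0.01), with Max at 0.17 and Tbp at -0.13. Of 10 genes of ribosome surveillance 2 were positive (median -0.09), with Mdm4 at -0.21 and Hbs1l at -0.18. edgeR called 0 genes in each of these lists (background 0.404%). At an unadjusted p under 0.05, 11 initiation factors (57.9%), 1 mTORC1 gene (6.25%) and 2 importers (25%) were higher, beside 7.85% of all genes. Lower at that p were 3 mTORC1 genes (18.75%) and 1 surveillance gene (10%), beside 5.51% of all genes. DESeq2 called 1 initiation factor higher (background 1.45%) and none of the others. Of 3 ribosomal proteins under other names 1 was positive, Rpl36al (log2 0.34), and 2 were negative, among them Fau (-0.20).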

How the data were processed

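The authors deposited whole-number fragment counts per gene name; they were made with featureCounts 1.5.1 over GENCODE vM3 exons, per the file headers, after alignment with STAR 2.3.0e to GRCm38.p3, per the submitters' processing notes. The header's command sets no option for strand or for multiply mapped reads, and the library kit is stranded per the labels' protocols. Each gene's deposited exon length is a count of bases. The table held 6 further columns of counts that match no sample here, and they were not used.

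Knockout and wild type were compared with edgeR 4.0.16 (filterByExpr with a minimum count of 10, TMM, robust quasi-likelihood test, Benjamini-Hochberg adjustment over all 13604 tested genes, threshold 0.05). The same fit was run on simulated counts, and that outcome is not reported here. DESeq2 1.42.0 and limma 3.58.1 (voom) served as alternatives. Shared sequence used GENCODE vM21 transcripts (87 of 88 names matched). The genes named are those with the 4 smallest p in each subunit and direction, the 3 highest and lowest levels per length, those not tested, and the 2 smallest p of each pathway list; Rps3, Rps27 and other genes shown for a feature were chosen after their values were seen. Several genes meeting this rule are left out and not reported here. The members and all lists were chosen with earlier results of these data known. Floors cover counting error only, while the SEs come from edgeR's fit and include variation between libraries. Pairwise replicate checks are in the closing section.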

Additional observations from a re-analysis of the deposited data

How the results depend on the processing

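The 2 medians of log2 difference and the 2 shares kept their direction under each alternative tried, and so did the 40 of 40 positive genes of at least 100 CPM. Leaving out 1 library moved the medians from 0.34 (small) and 0.23 (large) to 0.24 to 0.46 and 0.13 to 0.40, lowest without wild-type library 2 and highest without wild-type library 4. Counts of calls differed. Against 0 small and 0 large subunit genes called higher, testing every gene with at least 1 count called 4 and 6, DESeq2 3 and 5, a term for the libraries numbered 4 called 10 and 11, and the libraries numbered 2 and 3 alone 21 and 28. Lower calls were 1 large with every gene tested, 2 large with DESeq2, 1 large with the term, and 7 small and 11 large in libraries 2 and 3. Leaving out 1 library gave 0 to 19 small and 0 to 26 large genes higher and 0 to 2 small and 0 to 2 large lower; the highest counts of higher calls came without wild-type library 4, and the most small subunit genes called lower came without knockout library 4. Over all genes, 25 higher and 30 lower became 160 and 102 with every gene tested, 197 and 152 with DESeq2, 353 and 246 with the term, 1871 and 1436 in libraries 2 and 3, and 9 to 630 and 8 to 270 when 1 library was left out; at an adjusted p under 0.10 there were 38 higher. The causes were not tested. The replicate block called 0 ribosomal protein genes and moved lower calls over all genes to 50. Same-numbered libraries correlated in their deviations at 0.07, 0.28 and 0.45, and knockout library 2 correlated best with wild-type library 3 (0.30), so the numbers were not used as pairs. Each library numbered 4 correlated negatively with those numbered 2 and 3 of the other genotype (-0.23 to -0.42). Deviations were taken from the mean of the 3 libraries of a genotype. A positive value for the libraries numbered 4 therefore brings negative ones with it, and these add no separate observation. The main fit holds no term for the libraries numbered 4. Per kb of 1 GENCODE vM21 transcript, an alternative chosen after seeing the data, median wild-type levels were 101 in place of 59.3 CPM per kb (small) and 83.6 in place of 40.7 (large). Rpl24, at 0.01, turned to -0.0037 with upper quartile factors, -0.036 by library size only and -0.060 in libraries 2 and 3, and ranged from -0.11 to 0.25 when 1 library was left out. Levels per coding length of the protein were not run, since no protein sequences were used here. Depth limits the genes near or below 1 CPM, such as Rpl23a and Rps3a3, which had 222 and 78 counts over the 6 libraries.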

Other observations

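The proteins of the mitochondrial ribosome, which translates the few messengers of the mitochondrial genome, were positive in 61 of 76 tested genes, with a median log2 difference of 0.12. Within the libraries numbered 2 and 3, 63 of 76 were positive (median 0.20), and in those numbered 4 it was 29 of 76 (median -0.03). At an unadjusted p under 0.05, 9 were higher (11.8%, background 7.85%) and 3 lower (3.95%, background 5.51%). edgeR called 0 at an adjusted p under 0.05 (background 0.404%), and DESeq2 called 1 higher (background 1.45%) and 1 lower (background 1.12%). Mrpl16 was at 29.7, 28.7 and 26.4 CPM across the knockout libraries and at 20.5, 21.6 and 22.96 CPM across the wild-type libraries (log2 0.39, edgeR adjusted p = 0.153). Mrps34 was at 1.93, 1.30 and 2.45 against 4.08, 4.52 and 2.77 CPM (log2 -1.01, edgeR adjusted p = 0.193).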
